A study of Rattus norvegicus with 4 samples.

Results

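The prostanoid receptors are the cell-surface receptors for prostaglandins, prostacyclin and thromboxane, and 7 of them were looked for here: Ptger1, Ptger2, Ptger3 and Ptger4 for prostaglandin E2, Ptgfr for prostaglandin F2alpha, Ptgir for prostacyclin and Tbxa2r for thromboxane A2. Members were chosen by symbol, as every probe set annotated to exactly 1 of these genes. This gave 6 of the 7 genes with 9 of the 31099 probe sets on the array, among 14218 genes with a probe set of their own. Ptgir had no probe set annotated to it alone and is not analysed here.

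Cultures of smooth muscle cells from the aorta of Sprague-Dawley rats were profiled on 4 Affymetrix arrays with biotin-labelled cRNA. All 4 cultures had 3 days with serum and 3 days without it before a treatment of 24 h. One received interleukin-1b (IL-1b, an inflammatory cytokine) at 2.5 ng/mL, and its vehicle culture received 10 mM acetic acid with 0.1% bovine serum albumin. One received PDGF-DD (a platelet-derived growth factor) at 30 ng/mL, and its vehicle culture received 0.01% bovine serum albumin alone. Each group was 1 culture sample on 1 array, so no difference has a replicate check, a spread or a p-value, and a gene is called higher or lower only at 2-fold or more.

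Prostanoid receptors are G protein-coupled receptors that fall into groups by the G protein they engage. Ptger2, Ptger4 and Ptgir act mainly through Gs, which raises cyclic AMP and relaxes vascular smooth muscle. Ptger1, Ptgfr and Tbxa2r act mainly through Gq, which raises cell calcium and contracts it. Ptger3 acts mainly through Gi, which lowers cyclic AMP.

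To show the DNA that lies before 2 of these genes, the 250 bases upstream of the annotated start are given 5′ to 3′ on the strand of the gene, from RefSeq on the GRCr8 build. Tbxa2r, the receptor that passed the 2-fold limit, lies on the minus strand with its window at chr7:9038906-9039155. Ptger3, the receptor with the most matches to any motif searched, lies on the plus strand with its window at chr2:249264832-249265081. Capitals mark the GC box GGGCGG, the core bound by Sp1, on either strand.
Tbxa2r: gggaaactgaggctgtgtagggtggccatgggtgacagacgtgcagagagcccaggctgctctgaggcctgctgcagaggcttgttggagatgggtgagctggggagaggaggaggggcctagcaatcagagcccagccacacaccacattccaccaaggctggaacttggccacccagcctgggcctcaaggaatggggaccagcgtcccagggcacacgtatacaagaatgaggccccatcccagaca
Ptger3: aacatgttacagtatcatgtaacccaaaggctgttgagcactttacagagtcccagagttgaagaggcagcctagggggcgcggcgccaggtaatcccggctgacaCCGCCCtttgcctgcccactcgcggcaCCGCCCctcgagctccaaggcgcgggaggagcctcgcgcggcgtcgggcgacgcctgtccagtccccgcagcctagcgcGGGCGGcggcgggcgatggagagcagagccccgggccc
All 7 genes had an entry in the RefSeq promoter table, and 6 motifs were searched on both strands of each 300-base window, which reaches 50 bases past the start. The GC box was in 3 of the 7 windows, with 3 matches in Ptger3 at 144, 117 and 38 bases before the start and 1 match each in Ptger1 and Ptgir. It was in 33.1% of all 33469 promoter windows. None of the 7 windows held the kappaB consensus, the cyclic AMP response core TGACG, the AP-1 site TGANTCA, the SRF CArG box or the TATA box TATAAA, which were in 4.18%, 21.2%, 7.33%, 1.64% and 14.2% of all windows. In Ptger4 the annotated start is followed at once by ATG, so whether its window holds the promoter is not known. The absence of these letters says nothing about the binding of any factor. Over the full 300 bases, G and C made up 61.3% of the Tbxa2r window and 69.7% of the Ptger3 window, beside a median of 51.7% over all windows.

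Intensities are MAS5 values scaled to the same trimmed mean on every array. A value under 28.1, the floor set at the 40th percentile of all values, was treated as unmeasured. All 27 unspiked control probe sets lay below it and reached 23.9 at most. The floor was passed by 61.5% of probe sets with IL-1b and 60.8% with its vehicle, and by 58.3% with PDGF-DD and 59.4% with its vehicle. The 3′ to 5′ ratio of the actin control probe sets, a sign of RNA quality, was 2.05 with IL-1b and 1.58 with its vehicle, and 1.37 with PDGF-DD and 1.26 with its vehicle. The spiked BioC control read 524 with IL-1b and 590 with its vehicle, and 177 with PDGF-DD and 225 with its vehicle, so it was 2.62-fold lower on the PDGF-DD vehicle than on the IL-1b vehicle. Its part in differences across the pairs was not tested. All 7 smooth muscle markers were above the floor on every array. Of 6 endothelial and 4 platelet markers on the array, no more than 1 of each set was above the floor on any array.

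The receptors as a family were faint. Only 10 of the 36 intensities of their 9 probe sets were above the floor, where 58.3% to 61.5% of all probe sets passed it per array. Of the 9, 5 probe sets passed it on at least 1 array, and none passed it on all 4. By gene, 5 of the 6 passed it on at least 1 array, as did 10885 of all 14218 genes. By that last count the receptors were not set apart. A receptor that passes the floor on only 1 of a pair of arrays has to differ between them, so its ratio is a bound and its direction alone carries no weight.

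Tbxa2r, the contractile thromboxane receptor, was above the floor on 3 of the 4 arrays and was the one receptor that passed the 2-fold limit. A 2-fold call needed a value of at least 2 times the floor of 28.1 on 1 array. No other receptor read above 54.7, so only Tbxa2r could be called. Its probe set (1387069_a_at) read 26.6 with IL-1b and 129 with the IL-1b vehicle. It read 62.8 with PDGF-DD and 89.5 with the PDGF-DD vehicle. The IL-1b array was the only one under the floor, though its value still lay above every unspiked control on that array, the highest of which was 16.2. In descending order the level ran from the IL-1b vehicle through the PDGF-DD vehicle and PDGF-DD to IL-1b, and with 1 array a group no spread is known for any neighbouring pair.

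With IL-1b, Tbxa2r was at least 4.60-fold lower than with its own vehicle, a log2 ratio of -2.20 at the floor. It was also at least 3.19-fold lower than with the PDGF-DD vehicle, which is the vehicle array with the smaller Tbxa2r value. With PDGF-DD, Tbxa2r was 1.42-fold lower than with its own vehicle, a log2 ratio of -0.51, which does not reach the limit. The vehicle arrays differed by as much as that pair, with Tbxa2r 1.44-fold lower on the PDGF-DD vehicle than on the IL-1b vehicle. Set against the IL-1b vehicle, PDGF-DD was 2.06-fold lower (log2 ratio -1.04), a call that was lost with the values as deposited (-0.93) and after quantile normalization (-0.97). The IL-1b and PDGF-DD ratios stand side by side here, and the difference between them was not tested.

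**Figure D1:**
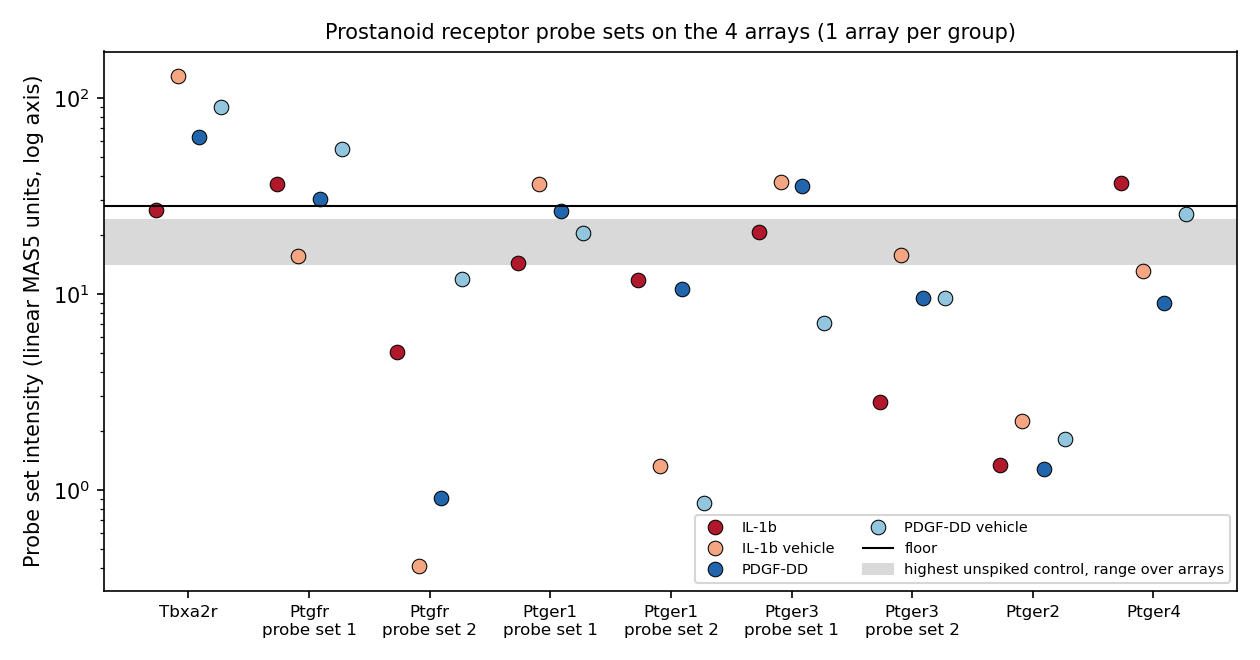
Intensity of each receptor probe set on the 4 arrays, on a log axis, with 1 point per array, a line at the floor of 28.1 and a grey band over the highest unspiked control of each array (probe set 1 is the brighter of a gene). Tbxa2r is above the floor on 3 arrays and just under it with IL-1b (26.6), while most other points lie near or under the floor.

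Among 1679 genes whose mean level on the vehicle arrays was within 1.5-fold of that of Tbxa2r (71.7 to 161 around 108), 6.37% were at least 2-fold lower with IL-1b than with its vehicle, 5.36% with PDGF-DD than with its vehicle, and 6.49% on the PDGF-DD vehicle than on the IL-1b vehicle. Tbxa2r is itself among the 1679 and in each count that follows. With IL-1b a log2 ratio as low as its bound or lower was seen in 19 of the 1679, or 1.13%. For PDGF-DD against its vehicle 284 of them, or 16.9%, were as low as Tbxa2r or lower. Between the vehicle arrays 362 of them, or 21.6%, were as low. Because of the floor, only a gene reading at least 129 on the IL-1b vehicle could have an IL-1b ratio as low as Tbxa2r. The genes were chosen on the mean of both vehicles, so the 1.13% is partly set by the floor and that choice. It thus cannot show how unusual the IL-1b ratio of Tbxa2r was. The PDGF-DD and vehicle ratios of Tbxa2r sat well within those of genes of like intensity. These shares describe the 4 arrays and are no test.

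**Figure D2:**
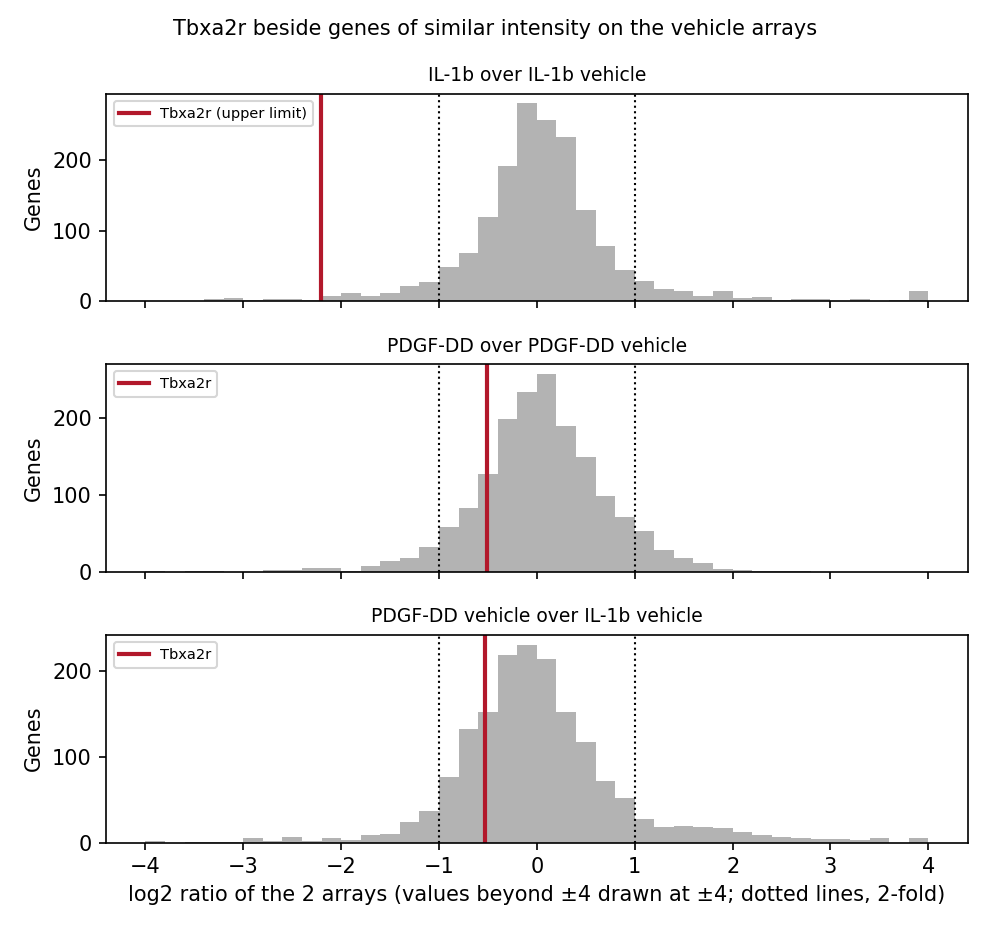
Distribution of log2 ratios of the 1679 genes near the intensity of Tbxa2r, by comparison, in counts of genes, with Tbxa2r as a red line, the 2-fold limits dotted and ratios beyond 4 drawn at 4. The IL-1b mark, a bound at -2.20, lies in the lower tail, and the PDGF-DD mark at -0.51 lies inside the bulk.

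Over the family, IL-1b against its vehicle gave 1 of 5 measured receptors at least 2-fold lower and 0 higher, where 5.42% of all measured genes were lower and 6.15% higher. PDGF-DD against its vehicle gave 0 of 3 measured receptors in either direction, where 4.67% of genes were lower and 4.24% higher. The PDGF-DD vehicle against the IL-1b vehicle gave 0 of 4, where 4.67% were lower and 5.79% higher. Against the other vehicle, IL-1b gave 1 of 3 lower, where 4.97% were lower and 5.44% higher, and PDGF-DD gave 1 of 4 lower, where 10.3% were lower and 9.64% higher. Every one of these receptor calls was Tbxa2r, the only receptor bright enough to be called at this floor. A single receptor of so few measured is too small a count to be read against those shares. With a lower floor, at the 20th percentile (8.06), IL-1b against its vehicle gave 2 receptors higher and 2 lower.

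Of the other Gq-coupled receptors, Ptgfr and Ptger1 passed the floor on some arrays. Ptgfr (1369127_a_at) read 36.3 with IL-1b and 15.6 with its vehicle, and 30.3 with PDGF-DD and 54.7 with its vehicle. The 3 arrays other than the IL-1b vehicle were above the floor, and PDGF-DD was 1.80-fold lower than its vehicle, a log2 ratio of -0.85 and short of the limit. IL-1b was at least 1.29-fold higher than its own vehicle and 1.5-fold lower than the PDGF-DD vehicle, so its direction turned with the vehicle it was set against. The vehicle of PDGF-DD gave at least 1.95-fold more Ptgfr signal than the vehicle of IL-1b. With 54.7 as the higher value, this bound could not reach the limit at this floor. The second Ptgfr probe set (1369126_at) was under the floor on all 4 arrays and read 11.9 at most.

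Ptger1 (1375803_at) read 14.4 with IL-1b and 36.5 with its vehicle, and 26.4 with PDGF-DD and 20.5 with its vehicle. The IL-1b vehicle was the only array above the floor, so IL-1b was at least 1.30-fold lower than it and nothing was measured for PDGF-DD against its own vehicle. The second Ptger1 probe set (1369254_a_at) read 11.7 at most and was measured on no array.

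Ptger3, the Gi-coupled receptor, was also close to the floor. Its brighter probe set (1369187_a_at) read 20.8 with IL-1b and 37.0 with its vehicle, and 35.4 with PDGF-DD and 7.12 with its vehicle. The IL-1b vehicle and PDGF-DD arrays were above the floor and the other pair were under it. IL-1b was at least 1.32-fold lower than its vehicle, and PDGF-DD was at least 1.26-fold higher than its own. Neither bound could reach the limit with values this close to the floor, so the sizes of these differences are not known. PDGF-DD and the IL-1b vehicle, the 2 arrays where it was measured, differed by 1.05-fold, with PDGF-DD the lower, and the direction flipped with the values as deposited and after quantile normalization. The second Ptger3 probe set (1376977_at) read 15.8 at most.

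The Gs-coupled receptors for prostaglandin E2 gave 1 measured value. Ptger4 (1368941_at) read 36.7 with IL-1b and 13.0 with its vehicle, and 8.97 with PDGF-DD and 25.6 with its vehicle. It was above the floor with IL-1b alone and there at least 1.31-fold higher than on either vehicle array. At 36.7 this bound could not reach the limit, so the size of the difference is not known. Ptger2 (1369766_at) read 1.33 with IL-1b and 2.25 with its vehicle, and 1.28 with PDGF-DD and 1.81 with its vehicle, all far under the floor. Of all 14218 genes, 23.4% were like Ptger2 in passing the floor on no array. Receptors at such intensities can be present at levels these arrays did not detect.

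Genes whose pattern over the 4 arrays was most like that of Tbxa2r were found by the Euclidean distance of mean-centred log2 intensities, among 9697 genes. The nearest were Mecom and Eef2k, each at a distance of 0.286, and Gprc5c at 0.295, and 18 genes lay within 0.5. Mecom, a zinc finger transcription factor, read 371 with IL-1b and 1520 with its vehicle, and 859 with PDGF-DD and 952 with its vehicle. Eef2k, the kinase of elongation factor eEF2, read 59.8 with IL-1b and 219 with its vehicle, and 115 with PDGF-DD and 148 with its vehicle. The orphan receptor Gprc5c read 71.9 with IL-1b and 294 with its vehicle, and 121 with PDGF-DD and 200 with its vehicle. Each was lowest with IL-1b and highest with its vehicle, as Tbxa2r was, which follows largely from their choice by likeness to Tbxa2r. With 4 arrays, many genes can share such an order.

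The smooth muscle markers moved with Tbxa2r on the IL-1b arrays. All 7 were at least 2-fold lower with IL-1b than with its vehicle (median log2 ratio -2.41), and their summed intensity was 8589 with IL-1b and 27993 with its vehicle. With PDGF-DD 6 of 7 were at least 2-fold lower (median -2.76), with a sum of 4676 against 20166 with its vehicle, while Tbxa2r was 1.42-fold lower. Between the vehicle arrays 3 of 7 were lower on the PDGF-DD vehicle (median -0.90). The part of these markers in the Tbxa2r result was not tested, and fewer cells of a type and less RNA per cell cannot be told apart in bulk RNA. Of the 8 leukocyte and macrophage markers on the array, 3 were above the floor with IL-1b and Ptprc, Cd68, Itgam, Csf1r and Cd3e were under it on every array. With IL-1b, Cd74 read 3379 and 106 with its vehicle, Lyz2 read 1305 and 28.0 with its vehicle, and Cd14 read 1333 and 1121 with its vehicle, so 2 of the 3 were at least 2-fold higher. The summed intensity of the 8 was 6050 with IL-1b and 1287 with its vehicle, and 1249 with PDGF-DD and 1852 with its vehicle. Of the 5 fibroblast and adventitia markers, 3 were higher with IL-1b (median log2 ratio 1.55), with a sum of 7845 with IL-1b and 2288 with its vehicle, and 1 was lower with PDGF-DD. Of the 3 proliferation markers, 0 changed by 2-fold with IL-1b, 2 were higher with PDGF-DD, and 3 were higher on the PDGF-DD vehicle than on the IL-1b vehicle (median 3.23). The part of these markers in the receptor values was not tested.

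The cyclic AMP arm lies downstream of the Gs- and Gi-coupled receptors, and 22 of its 30 listed genes were measured. With IL-1b 2 were higher and 4 lower (median log2 ratio -0.26), beside 6.15% higher and 5.42% lower and a median of 0.02 over all genes. With PDGF-DD 2 were higher and 2 lower (median -0.17), beside 4.24% and 4.67% and a median of 0.01. Pkia, an inhibitor of protein kinase A, was 2.30-fold lower with IL-1b, though its other measured probe set gave a log2 ratio of -0.96. Rapgef3, an exchange factor activated by cyclic AMP, was at least 2.23-fold lower with PDGF-DD. Akap12, an anchoring protein for protein kinase A, was 6.46-fold lower with IL-1b and 1.32-fold higher with PDGF-DD. Adcy5, an adenylyl cyclase, was 3.59-fold lower with IL-1b and 2.54-fold lower with PDGF-DD, but its other probe set gave a log2 ratio of 0.10 with IL-1b. Prkar1b, a regulatory subunit of protein kinase A, was 4.59-fold higher with IL-1b and 2.39-fold higher with PDGF-DD.

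Of genes that cyclic AMP is known to induce, 12 were measured, of which 9 did not reach the limit with IL-1b and 9 did not with PDGF-DD. With IL-1b 2 were higher and 1 lower (median log2 ratio -0.08), and with PDGF-DD 2 were higher and 1 lower (median 0.12). Rgs2, which shuts off Gq signalling, was 23.8-fold higher with IL-1b and 2.07-fold higher with PDGF-DD than with the own vehicle of each, and the PDGF-DD vehicle itself exceeded the IL-1b vehicle by 11.2-fold. Dusp1, a phosphatase of the MAP kinases, was 2.53-fold lower with IL-1b and 4.28-fold lower with PDGF-DD, and its other probe set fell short of the limit with IL-1b (log2 ratio -0.98). Of the G protein alpha subunits, receptor kinases and arrestins, 12 were measured, and 1 was higher and 0 lower with IL-1b (median 0.13) and 0 changed by 2-fold with PDGF-DD (median 0.07). The 1 was Gna14, a Gq-family subunit, at 2.12-fold, a call not met by its other measured probe set (log2 ratio 0.13) or against the PDGF-DD vehicle (1.60-fold). For both lists, the shares over all measured genes were 6.15% higher and 5.42% lower with IL-1b, and 4.24% and 4.67% with PDGF-DD. Lying mostly within 2-fold was thus common to most genes and not particular to the transducers.

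On the ligand side, 10 synthesis genes were measured with IL-1b, of which 5 were higher and 0 lower (median log2 ratio 0.91). With PDGF-DD 9 were measured, of which 1 was higher and 1 lower (median near 0 at -0.00080). Over all measured genes 6.15% were higher and 5.42% lower with IL-1b, and 4.24% and 4.67% with PDGF-DD. Ptgs2, the inducible cyclooxygenase that makes the shared precursor of all prostanoids, was 6.25-fold higher with IL-1b and 2.20-fold higher with PDGF-DD. Ptges makes prostaglandin E2, the ligand of the Ptger receptors. Its brightest probe set was under the floor on the 3 arrays without IL-1b, and there IL-1b exceeded its vehicle by at least 11.9-fold. The other measured Ptges probe set gave a smaller log2 ratio of 1.94 with IL-1b. The phospholipases Pla2g5 and Pla2g4a were 3.41-fold and 2.65-fold higher with IL-1b, and these 4 genes were also at least 2-fold above the PDGF-DD vehicle with IL-1b. The terminal synthases for the Tbxa2r and Ptgir ligands did not reach the limit with either factor. Tbxas1, the thromboxane synthase, read 33.9 with IL-1b and 32.8 with its vehicle, and 28.2 with PDGF-DD and 34.4 with its vehicle. These values lay just above the floor, so a 2-fold fall of Tbxas1 could not have been called. Ptgis, the prostacyclin synthase, read 1573 with IL-1b and 1431 with its vehicle, and 2639 with PDGF-DD and 2982 with its vehicle. Of the transport and breakdown genes, 8 were measured with IL-1b, with 2 higher and 1 lower (median -0.10). With PDGF-DD 6 were measured, with 0 in either direction (median 0.04), beside the same shares over all genes. The 1 that was lower was Akr1c14, a hydroxysteroid and prostaglandin-metabolising reductase, at least 8.60-fold lower with IL-1b. Akr1c14 was above the floor on the IL-1b vehicle array alone (241) and read 2.66 with IL-1b, 4.27 with PDGF-DD and 2.13 with the PDGF-DD vehicle, so the PDGF-DD vehicle had the same bound. Dpep1, a membrane dipeptidase known for splitting leukotriene D4, was 2.17-fold higher with IL-1b and at least 6.64-fold higher than the PDGF-DD vehicle. Its 2 other measured probe sets fell short of the limit with IL-1b against its own vehicle (log2 ratios 0.11 and 0.62). Ptgr1, the other gene that was higher, had a log2 ratio of 1.43 with IL-1b. Its direction turned when IL-1b was set against the PDGF-DD vehicle (-0.54). Of other receptors for these ligands, Ptgdr2 was under the floor on every array and read 15.9 at most, 2 nuclear receptors were measured with IL-1b and 1 with PDGF-DD, and none reached 2-fold against its own vehicle.

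**Figure D3:**
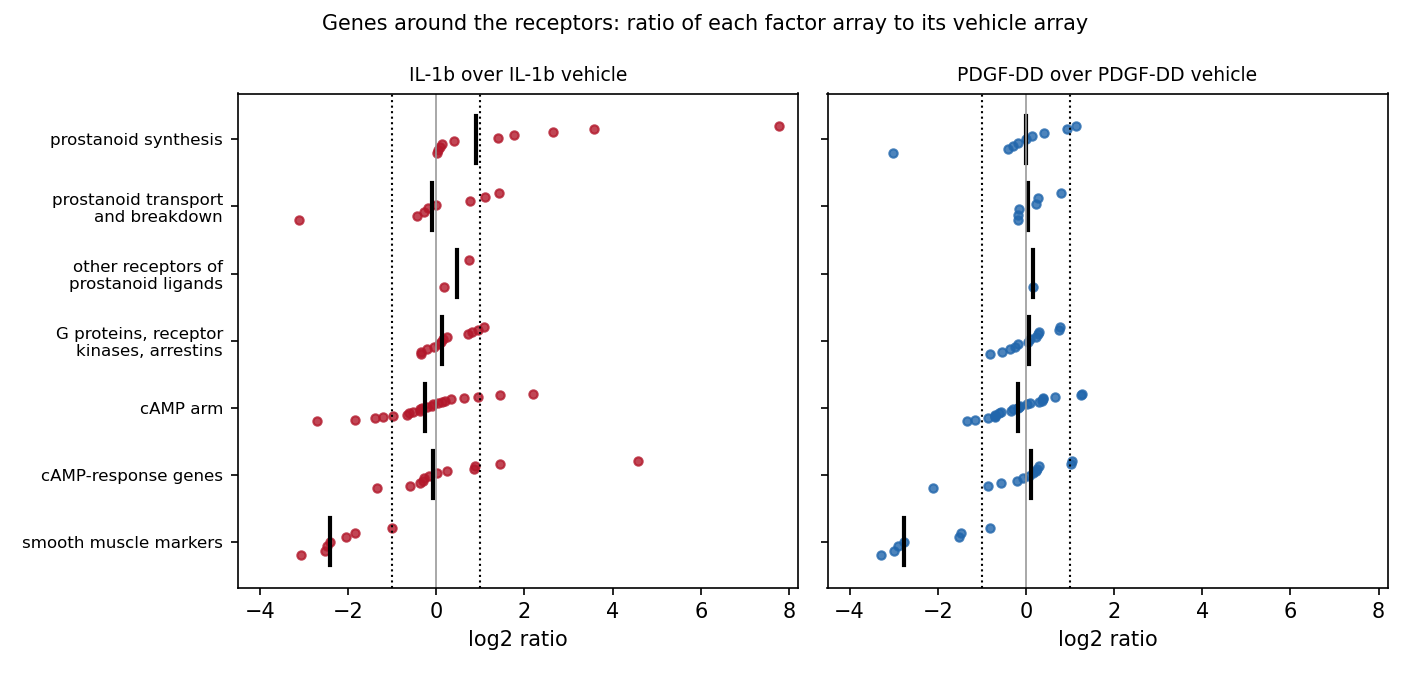
Log2 ratio of each measured gene of 6 pathway lists and of the smooth muscle markers, for each factor against its own vehicle, with 1 point per gene, the list median as a bar and the 2-fold limits dotted. The receptor transducers lie mostly between -1 and 1, and the synthesis genes with IL-1b hold the highest point, at 7.78.

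Over all 7 lists that were set up, of which 1 is counted here and not described, 82 genes were measured with IL-1b, of which 13 were higher and 10 lower, beside 6.15% and 5.42% of all genes. With PDGF-DD 78 were measured, of which 6 were higher and 7 lower, beside 4.24% and 4.67%. The vehicle arrays, which received no factor, gave 11 higher and 3 lower of 79 on the PDGF-DD vehicle against the IL-1b vehicle, beside 5.79% and 4.67%. The count between the vehicles is thus of the same order as that for either factor.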

How the data were processed

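The authors deposited MAS5 intensity values on a linear scale for 4 arrays, with MAS5 named per the submitters' processing notes. Its version, scaling target and detection calls are not given in the sources used. Titles in the labels set the group of every array. Arrays were rescaled to 1 common mean after trimming the lowest and highest 2% of probe sets. The floor was the 40th percentile of intensity over all probe sets and arrays, and values under it were set to it. Log2 ratios were taken after flooring. A ratio with 1 array at the floor is a bound, and one with both arrays there was left out.

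Gene names came from a 2016 annotation of the platform, where 20832 had 1 symbol, 436 had several and 9831 were not listed; 20764 matched a gene in the GRCr8 RefSeq table. Of several probe sets, the brightest by mean log2 intensity represented its gene. With 1 array per group no test was run, and a fixed limit of 2-fold was used. Besides all receptors, the naming rule takes up to 4 genes per list and factor with the largest ratio, list genes at least 2-fold from both vehicles, and the 3 genes most like a receptor with a 2-fold range. One of the 7 lists is not reported here on its own, and the text gives part of the genes the rule yields. Tbxas1, Ptgis and Ptgdr2 fall outside it and were picked with their values in view. The receptors, lists and rules were chosen with earlier results of these data known. Alternatives were the values as deposited, quantile normalization, other floors, a pseudocount of 16, the median over probe sets and the mean of both vehicles. The steps were tested on simulated data. Python 3.11.15, numpy 2.4.6, pandas 2.3.3 and matplotlib 3.10.9 were used.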

Additional observations from a re-analysis of the deposited data

Results flagged for a closer look

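Within the pathway lists, 2 genes were at least 2-fold from their vehicle in opposite directions with the 2 factors. Itpr2, an inositol trisphosphate receptor, had a log2 ratio of 1.11 with IL-1b and -1.14 with PDGF-DD, and its other probe set gave 0.94 and -0.97. Both signs of Itpr2 turned with the other vehicle, to -0.65 when IL-1b was set against the PDGF-DD vehicle and 0.62 when PDGF-DD was set against the IL-1b vehicle, and the PDGF-DD vehicle was 3.39-fold above the IL-1b vehicle. Pla2g2a, a secreted phospholipase that can release the precursor of prostanoids, had a log2 ratio of 7.78 with IL-1b, a bound, and -3 with PDGF-DD. Against the other vehicle Pla2g2a kept its direction with IL-1b (4.14) and turned with PDGF-DD (0.64, a bound), and the PDGF-DD vehicle was at least 12.5-fold above the IL-1b vehicle. These differences rest on 1 array per group and were not tested.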

How the results depend on the processing

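No paired analysis was possible because each group is 1 array and the labels give no shared replicate numbers. Low signal limits the receptors, whose values lie near the floor, as does the single array per group. The at least 2-fold IL-1b call on Tbxa2r held under every alternative except the 60th-percentile floor, where its own level was nearly at the floor (log2 ratio -0.30), with a range of -2.28 to -0.30. With that floor (intensity 105), 0 receptors were lower with IL-1b against either vehicle, the lists gave 6 higher with IL-1b, 3 higher and 4 lower with PDGF-DD, 6 higher between the vehicles and 6 higher for PDGF-DD against the IL-1b vehicle. With the 20th-percentile floor (8.06), receptors numbered 2 higher and 2 lower with IL-1b, 1 higher and 1 lower with PDGF-DD, 1 higher and 1 lower between the vehicles and 1 higher for IL-1b against the PDGF-DD vehicle; 4 probe sets were above it on every array, and the lists gave 12 lower with PDGF-DD, 6 lower between the vehicles and 20 lower for PDGF-DD against the IL-1b vehicle. With a pseudocount of 16 and no floor, receptors numbered 1 higher with PDGF-DD, and 1 higher and 1 lower between the vehicles, with all 9 probe sets used. PDGF-DD against the IL-1b vehicle gave 0 receptors lower as deposited, after quantile normalization, with the 60th-percentile floor and with the pseudocount. With the mean of both vehicles as reference the lists gave 8 higher with IL-1b. A floor at the highest unspiked control (23.9), chosen after seeing the data, gave 1 receptor higher between the vehicles and 1 probe set above it on every array. The log2 ratio of Ptger3 for PDGF-DD against the IL-1b vehicle turned to 0.0493 as deposited and 0.12 after quantile normalization, and that of Ptgfr for IL-1b to -0.11 with the mean of both vehicles. Over all genes, IL-1b gave 657 higher and 579 lower, against 1244 and 1049 with the 20th-percentile floor and 410 and 383 with the 60th.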
